A study of Homo sapiens with 12 samples.

Results

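A group of 10 genes that make, remove, carry or sense adenosine was followed in spheroids grown from the established cell line Caco-2, which came from a human colorectal adenocarcinoma and takes on enterocyte features. The 10 were picked by gene name from the 48162 rows of a table of RNA-seq counts, and all 10 had counts enough to be tested among 16733 genes. Adenosine release is a proposed anti-inflammatory action of methotrexate, which is why these genes were set side by side across the exposures. The spheroids had been embedded in Matrigel for 5 days with cells at passage 26, in DMEM holding 20% serum, and were exposed for 4 h. The groups were methotrexate with lactoferrin (both agents), methotrexate alone, lactoferrin alone and the carrier fluid (control), with 3 libraries each. Methotrexate is an antifolate drug and lactoferrin a protein of milk and mucosal fluids that binds iron. All groups share the 1 cell line, and the labels do not state that replicate libraries are from separate cultures, so p-values measure the spread between these libraries, which may be technical.

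Outside the cell, ATP and ADP are cut to AMP by ENTPD1 (CD39), and AMP is cut to adenosine by NT5E (CD73). Inside the cell, adenosine is phosphorylated back to AMP by ADK or deaminated to inosine by ADA, and AMP itself is deaminated to IMP by AMPD3. The equilibrative transporters SLC29A1 and SLC29A2 let adenosine cross the plasma membrane down its gradient. At the cell surface, ADORA1 couples to inhibitory G proteins and lowers cAMP, while ADORA2A and ADORA2B couple to stimulatory G proteins and raise it. In intestinal epithelium, ADORA2B is the receptor best known for driving chloride secretion, and NT5E and ENTPD1 are studied as brakes on mucosal inflammation. A polyglutamated form of methotrexate inhibits ATIC, an enzyme of purine synthesis, and the AICAR that then builds up is known to inhibit adenosine deaminase and AMP deaminase. All of these links act on metabolites, whereas the values below are transcript levels.

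The 3 methotrexate libraries stood apart from the other 9 in ways that bear on every comparison with them. They held 47459811 to 60591667 counts, against 18714054 to 23859094 in the other 9 libraries, and mitochondrially encoded genes took 6.67 to 7.54% of their counts, against 2.00 to 3.34%. The 8 adipocyte markers (ADIPOQ, PLIN1, PLIN4, FABP4, LEP, CIDEC, LIPE, LPL), all in the table, summed to 15304 to 15857 CPM (counts scaled to library size) with methotrexate, against 30.4 to 38.0 CPM in the other 9, where LEP was at 0 with both agents and with lactoferrin. The 8 fibroblast markers summed to 8664 to 10016 CPM with methotrexate, against 105 to 127 CPM in the other 9. There DPT was at 0 in control, with both agents and with lactoferrin, and DCN was at 0 with lactoferrin. The 12 Caco-2 and enterocyte markers, none at 0, summed to 4238 to 4456 CPM with methotrexate, against 8037 to 9151 CPM in the other 9. The 7 of 8 endothelial markers in the table summed to 9.70 to 10.6 CPM with methotrexate, against 1.89 to 4.71 CPM elsewhere, and macrophage and leukocyte markers to 106 to 121 CPM, against 147 to 214 CPM. EMCN and TEK of the endothelial list were at 0 with lactoferrin and in control, MRC1 in all 4 groups, and CD163 with both agents and in control. T and NK cell markers stayed at or below 6.41 CPM and red cell markers at or below 0.340 CPM in every library. These markers moved with each methotrexate difference given below, and their part in it was not tested. In bulk RNA, a different share of cells and a different amount of RNA per cell cannot be told apart. Beside the usual scaling (TMM), each such difference of a member, and the counts of the wider lists, are also given on an epithelial scaling, which sets the libraries level on 41 brush border and tight junction genes. On TMM, the 43 tested genes of those lists had a median log2 change of -0.97 between methotrexate and control, and the epithelial scaling moved the median of all 16733 genes from 0.03 to 0.92.

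Most of the 10 genes differed between the methotrexate and control libraries, and 0 of them passed the test between the libraries with both agents and control. With methotrexate against control, 6 members rose and 2 fell in edgeR's quasi-likelihood test at a Benjamini-Hochberg adjusted p under 0.05, where 64.5% of all tested genes passed (35.4% higher and 29.1% lower). A share of 8 in 10 is thus to be read against a background in which most of the transcriptome moved. The members' median log2 change was 0.41, against 0.03 over all genes. On the epithelial scaling 7 members rose and 0 fell, where 74.9% of all genes passed (74.2% higher and 0.741% lower), and the members' median was 1.30. The libraries of the groups did not overlap for 8 members, against 71.5% of all genes.

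With lactoferrin against control, 0 of the 10 passed edgeR's test, where 0% of all genes passed. With both agents against control the count was 0, where 0.0299% passed, and with both agents against lactoferrin it was 0, where 0.0179% passed. DESeq2 and limma-voom also called 0 members in these 3 comparisons. At an unadjusted p under 0.05 the counts were 0, 0 and 1, where 628, 591 and 565 of all 16733 genes were. The 95% interval of the log2 change lay within -1 and 1 for 9, 9 and 10 members, so that a change of 2-fold either way lay outside it for nearly all of them. ADORA2A was the exception in the first 2 of these. Groups did not overlap for 2 members between lactoferrin and control (10.1% of all genes), for 1 between both agents and control (7.84%) and for 2 between both agents and lactoferrin (6.88%).

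With both agents against methotrexate alone, 3 members rose (28.8% of all genes) and 5 fell (34.4%), where 63.2% passed in either direction, and the groups did not overlap for any of the 10, against 66.5% of all genes. On the epithelial scaling 0 rose and 7 fell, where 72.9% of all genes passed (1.49% higher and 71.4% lower). In a test of whether the log2 change with methotrexate differed with lactoferrin present, 5 of the 10 passed, where 46.7% of all genes did. The count on the epithelial scaling was 7 of 10, where 62.5% of all genes passed. These comparisons share libraries with those above: control is used in 3 of them and methotrexate in 2. The plot of log2 fold changes shows the 2 comparisons that hold the methotrexate libraries as near mirror images, and both use the same methotrexate libraries.

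**Figure D1:**
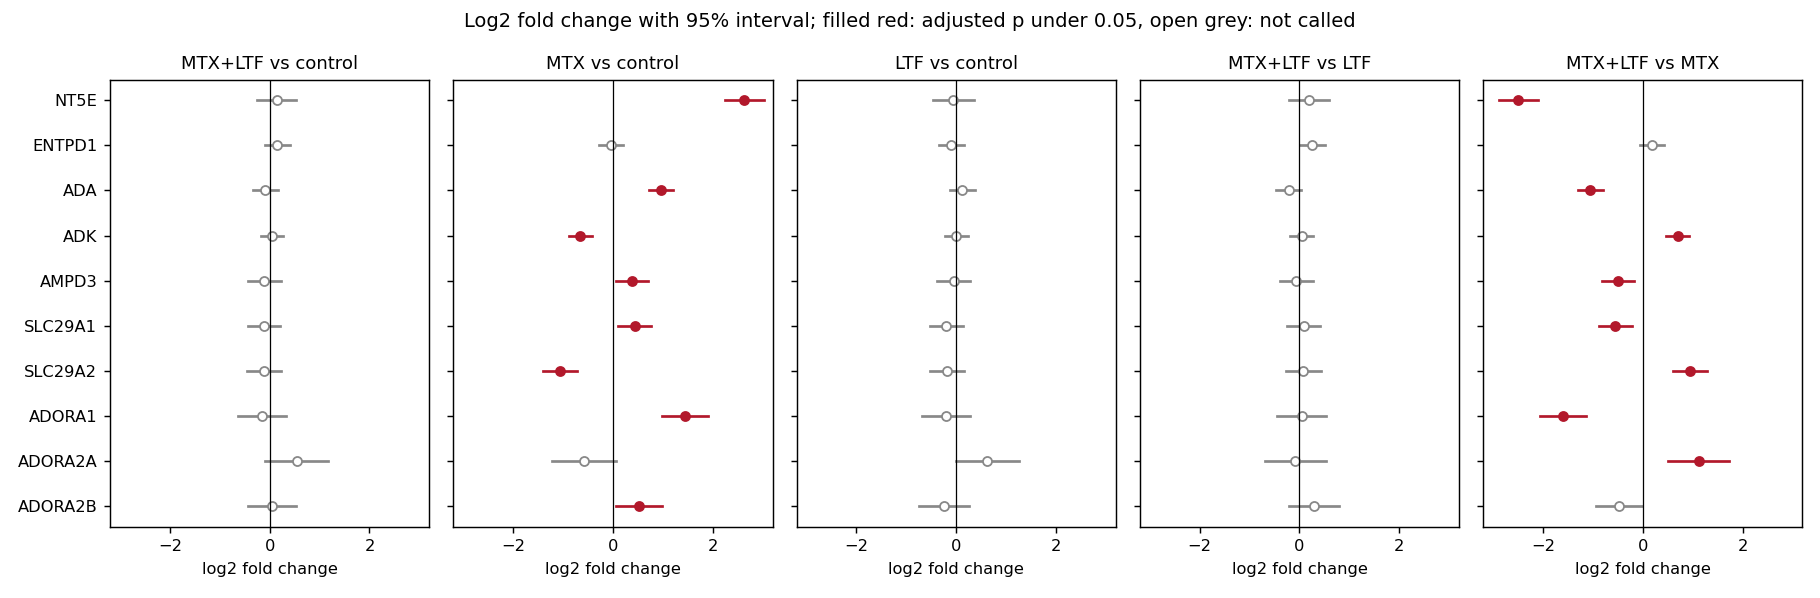
Log2 fold change of each of the 10 adenosine genes (y axis) in 5 comparisons (panels), as points with 95% intervals from edgeR; filled red points passed an adjusted p of 0.05, open grey points did not. Calls appear in the 2 panels that hold the methotrexate libraries, 8 in each, and there are 0 in the other 3 panels.

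For the 3 members with the largest rises under methotrexate on TMM, NT5E, ADORA1 and ADA, the promoter windows are shown, so that the sequence at which a shared change could be sought stands beside the values. Each window holds 250 bases before and 50 after the annotated start in RefSeq's GRCh38.p14, read on the gene's strand from 5′ to 3′. Capitals mark the GC box GGGCGG, which is bound by SP-family factors, and the half-site TGACG of the cAMP response element, each on either strand, with overlapping matches counted separately. NT5E lies on the + strand at chr6:85449833-85450132, ADORA1 on the + strand at chr1:203127476-203127775 and ADA on the - strand at chr20:44651650-44651949.
NT5E: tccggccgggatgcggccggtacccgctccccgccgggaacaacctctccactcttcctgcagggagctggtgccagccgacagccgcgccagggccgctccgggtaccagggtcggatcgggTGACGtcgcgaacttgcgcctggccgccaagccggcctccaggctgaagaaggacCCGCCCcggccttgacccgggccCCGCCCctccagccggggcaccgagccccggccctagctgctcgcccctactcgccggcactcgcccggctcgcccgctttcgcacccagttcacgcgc
ADORA1: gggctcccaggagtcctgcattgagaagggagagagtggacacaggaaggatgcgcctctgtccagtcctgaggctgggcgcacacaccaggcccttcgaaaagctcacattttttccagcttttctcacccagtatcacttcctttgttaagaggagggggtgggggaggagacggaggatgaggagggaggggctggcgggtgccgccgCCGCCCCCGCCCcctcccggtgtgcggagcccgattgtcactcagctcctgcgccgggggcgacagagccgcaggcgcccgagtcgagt
ADA: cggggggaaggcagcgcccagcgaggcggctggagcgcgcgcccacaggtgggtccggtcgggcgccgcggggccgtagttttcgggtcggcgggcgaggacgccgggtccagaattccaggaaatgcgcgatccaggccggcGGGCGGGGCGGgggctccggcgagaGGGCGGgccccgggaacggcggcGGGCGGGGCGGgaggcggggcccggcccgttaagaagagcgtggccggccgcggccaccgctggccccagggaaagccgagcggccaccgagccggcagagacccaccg
The NT5E window held 2 GC boxes and 1 half-site, the ADORA1 window 2 GC boxes and the ADA window 5 GC boxes. None of the 3 windows held the full cAMP element TGACGTCA. Among 35116 promoter windows of the same length, 45.0% held at least 1 GC box, 24.6% the half-site and 1.85% the full element. The NT5E, ADORA1 and ADA windows were 75.0, 65.0 and 79.3% G and C, against a median of 58.7% over all windows, so those shares are not from windows of like composition. ADK, which fell on TMM, also had 4 and 2 GC boxes in its 2 windows, and the 5 windows of ENTPD1, which was not called, had 0. ENTPD1 windows did hold half-sites, 3 in 1 window and 1 in another. Of the other members that rose, SLC29A1 had 3 GC boxes in each window, ADORA2B had 2, and AMPD3 had 1 in 1 window and 0 in the rest. A match of letters is a description of the window and no sign that a factor binds there.

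The largest change of the 10 genes was in production. NT5E (ENSG00000135318, hg19 chr6:86159809-86205500, + strand) had 10.1, 6.64 and 11.1 CPM with both agents, 44.5, 54.2 and 58.0 CPM with methotrexate, 8.22, 8.30 and 7.86 CPM with lactoferrin, and 10.4, 6.71 and 8.32 CPM in control. All 3 methotrexate libraries lay far above the other 9, and the other groups overlapped each other. NT5E thus averaged 52.2 ± 6.92 CPM with methotrexate and 8.47 ± 1.85 CPM in control (SD, n = 3 each), a log2 change of 2.63 ± 0.18 (SE; adjusted p = 3.51e-09, edgeR quasi-likelihood). The change was 3.53 on the epithelial scaling. It fell by 2.49 ± 0.18 on the log2 scale with both agents against methotrexate (adjusted p = 6.63e-09), and by 3.32 on the epithelial scaling. Its log2 change with both agents against control was 0.14, with a 95% interval of -0.26 to 0.54.

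ENTPD1 (ENSG00000138185, hg19 chr10:97471536-97637023, + strand), which supplies the AMP that NT5E cuts, did not follow it. It had 14.01, 13.4 and 14.7 CPM with both agents, 12.2, 12.9 and 11.8 CPM with methotrexate, 10.9, 12.03 and 12.3 CPM with lactoferrin, and 12.4, 11.8 and 13.6 CPM in control. The methotrexate and control libraries overlapped, and the log2 change was -0.03, with a 95% interval of -0.27 to 0.21 (adjusted p = 0.816). Scaled on the epithelial genes it rose by 0.86 (adjusted p = 8.02e-06, edgeR), where the median over all genes was 0.92. With both agents against methotrexate it fell by 0.64 on that scaling, where the median over all genes was -0.84. In the comparison of both agents with lactoferrin, ENTPD1 was the 1 member with an unadjusted p under 0.05, at a log2 change of 0.26 ± 0.12 (adjusted p = 1.00, edgeR). The antisense gene ENTPD1-AS1, which overlaps it, had 9 to 68 counts per library and ENTPD1 itself 227 to 668. The strandedness of the libraries is not stated in the labels, so fragments of an antisense or overlapping gene may be counted to either.

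**Figure D2:**
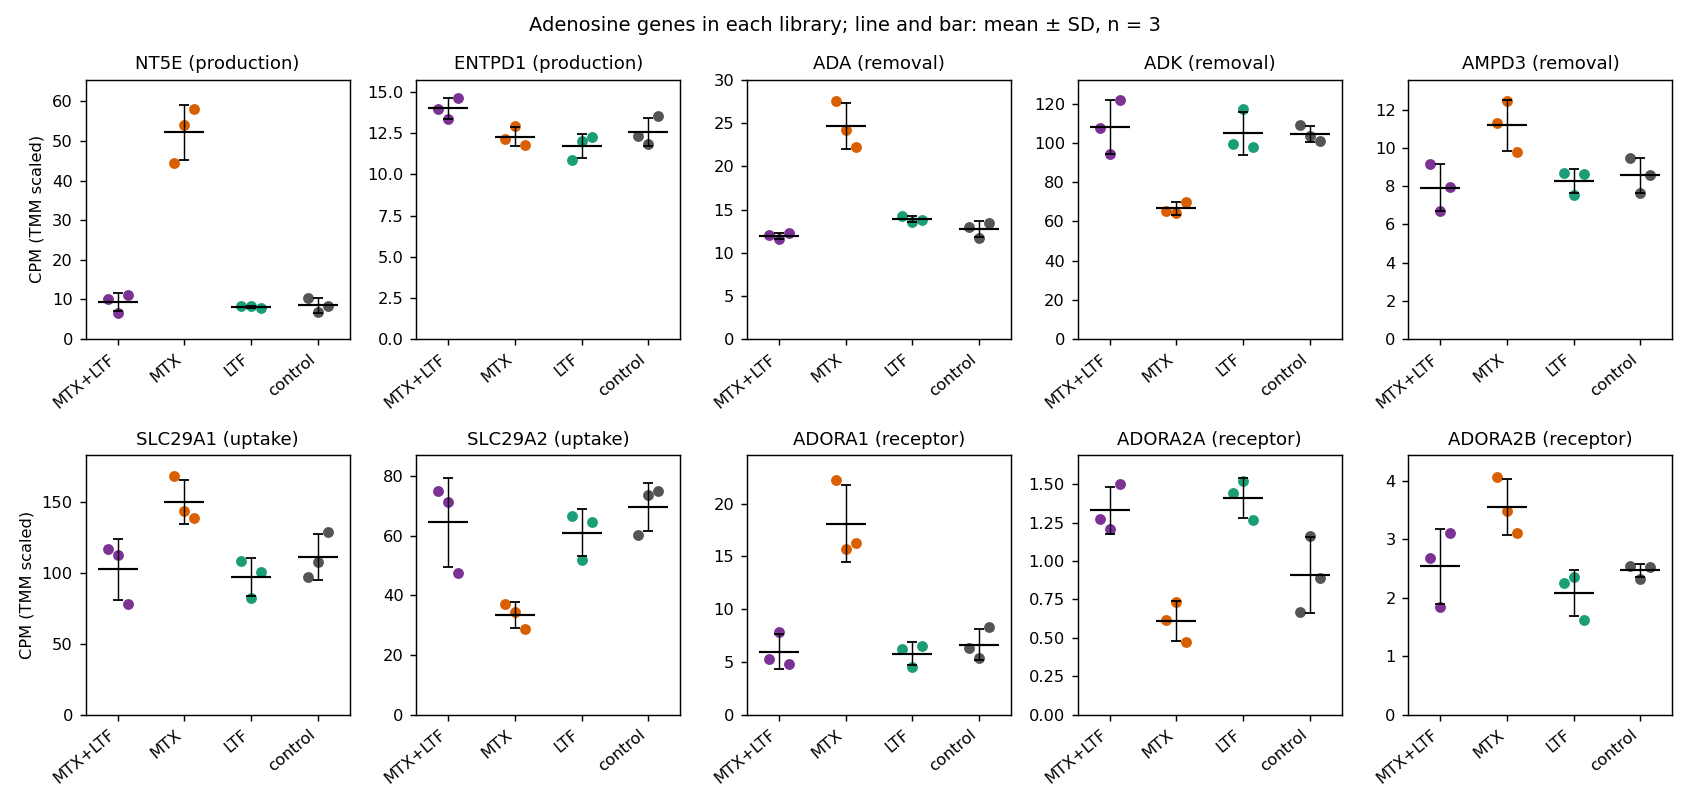
Level of each of the 10 genes in every library, in CPM on a linear axis from 0, with 1 panel per gene and the groups both agents (MTX+LTF), methotrexate (MTX), lactoferrin (LTF) and control from left to right; lines and bars are the mean and SD of 3 libraries. The methotrexate libraries lie above all others for NT5E, ADA, AMPD3, SLC29A1, ADORA1 and, by the least, ADORA2B. They lie below all others for ADK and SLC29A2, where the epithelial scaling reverses the direction of ADK.

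Of the enzymes that remove adenosine, ADA rose and ADK fell under methotrexate on TMM. ADA (ENSG00000196839, hg19 chr20:43248163-43280874, - strand), whose loss causes severe combined immunodeficiency, had 12.01, 11.5 and 12.3 CPM with both agents, 27.6, 24.2 and 22.3 CPM with methotrexate, 14.3, 13.6 and 13.7 CPM with lactoferrin, and 13.03, 11.6 and 13.5 CPM in control. The methotrexate libraries were the 3 highest. ADA averaged 24.7 ± 2.67 CPM with methotrexate and 12.7 ± 0.952 CPM in control (SD, n = 3 each), a log2 change of 0.96 ± 0.11 (adjusted p = 2.33e-06, edgeR), and 1.85 on the epithelial scaling. It fell by 1.05 ± 0.12 with both agents against methotrexate (adjusted p = 9.35e-07), and by 1.87 on the epithelial scaling. Lactoferrin libraries lay just above control for ADA without overlap, at a log2 change of 0.13 with a 95% interval of -0.13 to 0.38, which did not pass the test. ADA overlaps PKIG, a kinase inhibitor gene on the other strand, which had 1944, 2663 and 3099 counts with methotrexate and 473, 574 and 453 counts in control. It had 356 to 558 counts with both agents and 343 to 498 counts with lactoferrin. The log2 change of PKIG was 1.31 with methotrexate against control and -1.39 with both agents against methotrexate (adjusted p = 2.32e-06 and 1.31e-06, edgeR). The counts of ADA may include its fragments, and its part in the rise and fall of ADA was not tested.

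ADK (ENSG00000156110, hg19 chr10:75910960-76469061, + strand), the kinase that keeps intracellular adenosine low, had 108, 94.7 and 122 CPM with both agents, 65.5, 64.3 and 70.2 CPM with methotrexate, 99.6, 118 and 97.8 CPM with lactoferrin, and 109, 104 and 101 CPM in control. The methotrexate libraries were the 3 lowest of the 12. ADK averaged 66.6 ± 3.14 CPM with methotrexate and 105 ± 4.19 CPM in control (SD, n = 3 each), a fall of 0.65 ± 0.11 on the log2 scale (adjusted p = 6.15e-05, edgeR). The fall is less than the median fall of the epithelial genes, and on the scaling set by them ADK had a log2 change of 0.24, with a 95% interval of -0.0046 to 0.49, which did not pass (adjusted p = 0.0703). With lactoferrin added to methotrexate ADK rose by 0.70 ± 0.11 (adjusted p = 3.14e-05) on TMM, and had -0.13 on the epithelial scaling.

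AMPD3 (ENSG00000133805, hg19 chr11:10329860-10529126, + strand), the erythrocyte-type AMP deaminase, moved least among the removal genes that passed. It had 9.17, 6.69 and 7.94 CPM with both agents, 11.3, 12.46 and 9.80 CPM with methotrexate, 8.70, 7.56 and 8.62 CPM with lactoferrin, and 9.48, 7.67 and 8.57 CPM in control. The lowest methotrexate library lay only slightly above the highest control library. The log2 change was 0.39 ± 0.15 with methotrexate against control (adjusted p = 0.0332, edgeR), and 1.28 on the epithelial scaling. The TMM call was lost without methotrexate library 1 (0.38, adjusted p = 0.0703), methotrexate library 2 (0.30, adjusted p = 0.137), control library 2 (0.31, adjusted p = 0.136) or control library 3 (0.38, adjusted p = 0.0752). AMPD3 fell by 0.49 ± 0.15 with both agents against methotrexate (adjusted p = 0.00922), and without library 2 of both agents by 0.38 (adjusted p = 0.0522). The epithelial scaling gave a fall of 1.33.

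The transporters moved in opposite directions under methotrexate on TMM. SLC29A1 (ENSG00000112759, hg19 chr6:44187242-44201888, + strand), the transporter sensitive to low doses of nitrobenzylthioinosine, had 117, 113 and 77.9 CPM with both agents, 168, 144 and 138 CPM with methotrexate, 108, 82.0 and 100.2 CPM with lactoferrin, and 97.0, 108 and 128 CPM in control. SLC29A2 (ENSG00000174669, hg19 chr11:66129992-66139685, - strand), the less sensitive form, had 75.0, 71.4 and 47.4 CPM with both agents, 37.1, 34.5 and 28.6 CPM with methotrexate, 66.7, 52.0 and 64.7 CPM with lactoferrin, and 60.5, 73.9 and 75.0 CPM in control. The methotrexate libraries were thus the 3 highest for SLC29A1 and the 3 lowest for SLC29A2. The log2 changes against control were 0.43 ± 0.15 for SLC29A1 (adjusted p = 0.0209, edgeR) and -1.06 ± 0.16 for SLC29A2 (adjusted p = 3.03e-05). On the epithelial scaling SLC29A1 rose by 1.33 and SLC29A2 had -0.17, with a 95% interval of -0.48 to 0.14 (adjusted p = 0.304). The TMM call of SLC29A1 was lost without methotrexate library 1 (0.34, adjusted p = 0.0903), control library 1 (0.34, adjusted p = 0.0984) or control library 2 (0.41, adjusted p = 0.0661). In the group with both agents, SLC29A1 fell by 0.55 ± 0.15 relative to methotrexate (adjusted p = 0.00528), and SLC29A2 rose by 0.95 ± 0.16 (adjusted p = 9.40e-05). Scaled on the epithelial genes, SLC29A1 fell by 1.38 and SLC29A2 had 0.12, which did not pass (adjusted p = 0.482). SLC29A2 overlaps the end of the coding gene RP11-867G23.8 on the other strand, which averaged 455 counts.

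Outside the methotrexate libraries the same 2 transporters kept a nearly fixed proportion from library to library. Over the 9 other libraries Pearson's r of their log2 CPM was 0.96 (exact permutation p = 3.58e-05, 0.00161 adjusted over the 45 pairs of members) and Spearman's rho was 0.93 (exact permutation p = 0.00075, adjusted p = 0.0337), two-sided. Without the 2 libraries farthest from the median in SLC29A1, r was 0.85, and over deviations from the group means it was 0.96. It was the 1 pair of 45 to pass by Pearson's r, and by Spearman's rho NT5E and ADORA2B also passed (rho = 0.90, adjusted p = 0.0456 by exact permutation). Pearson's r of NT5E and ADORA2B was 0.71 (adjusted p = 0.184, exact permutation), and 0.54 without the 2 libraries farthest from the median in NT5E. The points of the transporters share more than that pair. The deviations of SLC29A1 and SLC29A2 were lowest in library 3 of both agents, library 2 of lactoferrin and library 1 of control. The same 3 libraries had the lowest scores on the first principal component of all genes' deviations, which held 30.4% of their variance, and the part of that component in the relation was not tested. In the plot of one transporter against the other, the methotrexate libraries lie off the line of the other 9.

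**Figure D3:**
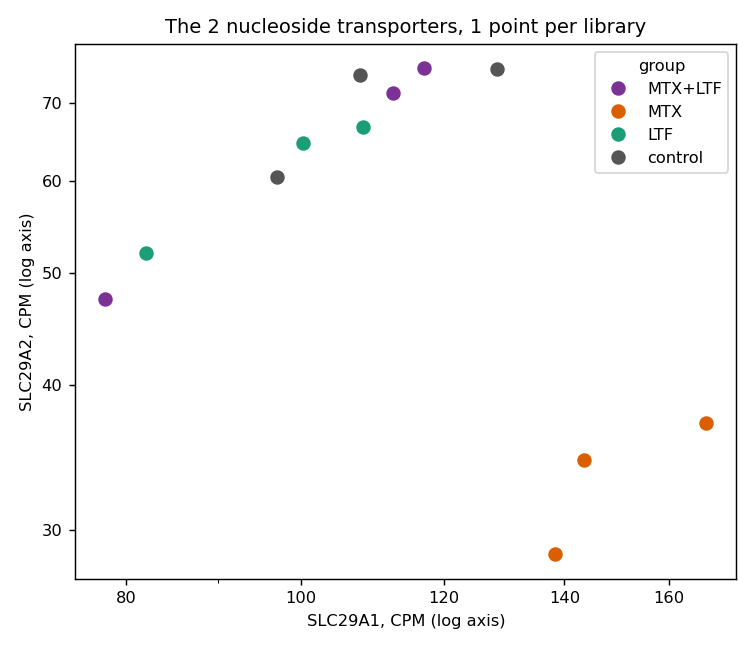
SLC29A2 against SLC29A1 in CPM, both on log axes, with 1 point per library and colours for the 4 groups. The 9 libraries without methotrexate alone lie along 1 line, and the 3 methotrexate libraries lie to its lower right, at 138 to 168 CPM of SLC29A1 and 28.6 to 37.1 CPM of SLC29A2.

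Among the receptors, ADORA1 rose and ADORA2A did not pass the test with methotrexate against control. ADORA1 (ENSG00000163485, hg19 chr1:203059782-203136533, + strand) had 5.22, 7.85 and 4.79 CPM with both agents, 22.3, 15.7 and 16.2 CPM with methotrexate, 6.25, 4.52 and 6.54 CPM with lactoferrin, and 6.27, 5.34 and 8.28 CPM in control. The 3 methotrexate libraries were the highest and the rest overlapped. The log2 change was 1.44 ± 0.21 with methotrexate against control (adjusted p = 2.30e-05, edgeR), and 2.34 on the epithelial scaling. It fell by 1.60 ± 0.22 with both agents against methotrexate (adjusted p = 9.21e-06), and by 2.42 on the epithelial scaling.

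ADORA2B (ENSG00000170425, hg19 chr17:15848231-15879060, + strand), which needs more adenosine than the other receptors to respond, had 2.67, 1.84 and 3.10 CPM with both agents, 4.06, 3.49 and 3.11 CPM with methotrexate, 2.26, 2.36 and 1.62 CPM with lactoferrin, and 2.54, 2.33 and 2.53 CPM in control. Methotrexate libraries were the 3 highest, but the lowest of them all but met the highest library of both agents. The log2 change against control was 0.53 ± 0.22 (adjusted p = 0.0439, edgeR), and 1.42 on the epithelial scaling. The TMM call was lost when any 1 of 7 libraries was left out: control 1, 2 or 3, methotrexate 1 or 2, library 1 of both agents or library 1 of lactoferrin, with log2 changes of 0.42 to 0.54 and adjusted p-values up to 0.145. It was also lost without the filter on low counts (0.55, adjusted p = 0.0616). Its log2 change with both agents against methotrexate was -0.48 ± 0.22, which did not pass (adjusted p = 0.0648), and on the epithelial scaling it fell by 1.31 (adjusted p = 3.94e-05).

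ADORA2A (ENSG00000128271, hg19 chr22:24813847-24838328, + strand), the receptor best known for restraining leukocytes, was the lowest member, with 14 to 38 counts per library. It had 1.27, 1.21 and 1.51 CPM with both agents, 0.616, 0.736 and 0.476 CPM with methotrexate, 1.44, 1.52 and 1.27 CPM with lactoferrin, and 0.671, 1.16 and 0.887 CPM in control. On TMM, all 6 libraries that received lactoferrin, alone or with methotrexate, lay above all 6 that did not, which was seen after the values were known and is given with no test. On the epithelial scaling this order did not hold, as methotrexate library 2 then lay above libraries 1 and 2 of both agents and library 3 of lactoferrin. The log2 change was 0.62 with lactoferrin against control (95% interval -0.012 to 1.26, adjusted p = 1.00, edgeR) and 0.54 with both agents against control (-0.095 to 1.17, adjusted p = 1.00), and these comparisons share the control libraries. Without the 3 methotrexate libraries in the fit the values were 0.62 and 0.54. With methotrexate against control the log2 change was -0.58 (-1.22 to 0.06, adjusted p = 0.101) on TMM and 0.31 on the epithelial scaling. ADORA2A rose by 1.12 ± 0.29 with both agents against methotrexate (adjusted p = 0.00322), and had 0.30 on the epithelial scaling, which did not pass (adjusted p = 0.386).

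The antisense gene ADORA2A-AS1 overlaps ADORA2A and held 255 to 436 counts per library, many times those of ADORA2A. It averaged 7.63 ± 0.9755 CPM with methotrexate and 15.8 ± 1.501 CPM in control (SD, n = 3 each; log2 change -1.05, adjusted p = 1.39e-05, edgeR; -0.16 on the epithelial scaling, adjusted p = 0.330), and its log2 change was -0.07 with lactoferrin against control and -0.08 with both agents against control. The counts of ADORA2A may therefore include antisense fragments. The coding gene SPECC1L also overlaps ADORA2A, on the same strand, and averaged 0.583 counts. How fragments shared by 2 genes were counted is not stated, so the level of ADORA2A may also be too low. Over the 9 libraries without methotrexate alone, the 3 genes of 11776 whose log2 CPM ran most like that of ADORA2A were ATP5S (Pearson's r = 0.94), ZNF780B (0.94) and TERT (0.93). The 99th percentile of r over all those genes was 0.77, and no p is attached to this ranking.

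Set per kilobase of the 1 length deposited for each gene, ADK, ADA and both transporters stood above the other 6 members in control. That length need not be the length of the transcripts present, so the order across genes is approximate. ENTPD1 was divided by 12589 bases and ADA by 1770, and before division they had 12.6 and 12.7 CPM in control. ADK had 50.3 ± 2.01 CPM per kb and SLC29A1 44.7 ± 6.42 CPM per kb, which did not differ beyond their spread, followed by SLC29A2 at 27.8 ± 3.21 and ADA at 7.18 ± 0.538 CPM per kb (SD, n = 3). NT5E at 2.39 ± 0.521, AMPD3 at 2.15 ± 0.227 and ADORA1 at 1.95 ± 0.440 CPM per kb overlapped. ADORA2B followed at 1.32 ± 0.0637, ENTPD1 at 1.00 ± 0.0697 and ADORA2A at 0.353 ± 0.0964 CPM per kb. In the methotrexate libraries SLC29A1 led at 60.3 ± 6.34 CPM per kb, and NT5E stood at 14.7 ± 1.95 CPM per kb, level with ADA at 13.95 ± 1.51 and SLC29A2 at 13.3 ± 1.74 CPM per kb.

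Ratios of counts within a library do not depend on how libraries are scaled, and they set the methotrexate libraries apart again. The ratio of NT5E to ADA was 0.841, 0.576 and 0.903 with both agents, 1.62, 2.23 and 2.60 with methotrexate, 0.576, 0.610 and 0.572 with lactoferrin, and 0.798, 0.576 and 0.618 in control. The ratio of ADK to ADA was 8.21 to 9.95 with both agents, 2.38 to 3.15 with methotrexate, 6.98 to 8.65 with lactoferrin, and 7.51 to 8.90 in control. The ratio of SLC29A1 to SLC29A2 was 1.56 to 1.64 with both agents, 4.16 to 4.83 with methotrexate, 1.55 to 1.62 with lactoferrin, and 1.46 to 1.71 in control. For these 3 ratios, the methotrexate libraries lay outside the range of all 9 others. The ratio of NT5E to ENTPD1 was 0.496 to 0.755 with both agents, 3.66 to 4.91 with methotrexate, 0.640 to 0.753 with lactoferrin, and 0.566 to 0.841 in control. The ratio of ADORA2B to ADORA1 was 0.235 to 0.648 with both agents, 0.183 to 0.222 with methotrexate, 0.248 to 0.522 with lactoferrin, and 0.306 to 0.436 in control. A ratio shows that the members changed unequally, and not which of them changed. It also does not separate transcripts of one cell type from those of another.

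**Figure D4:**
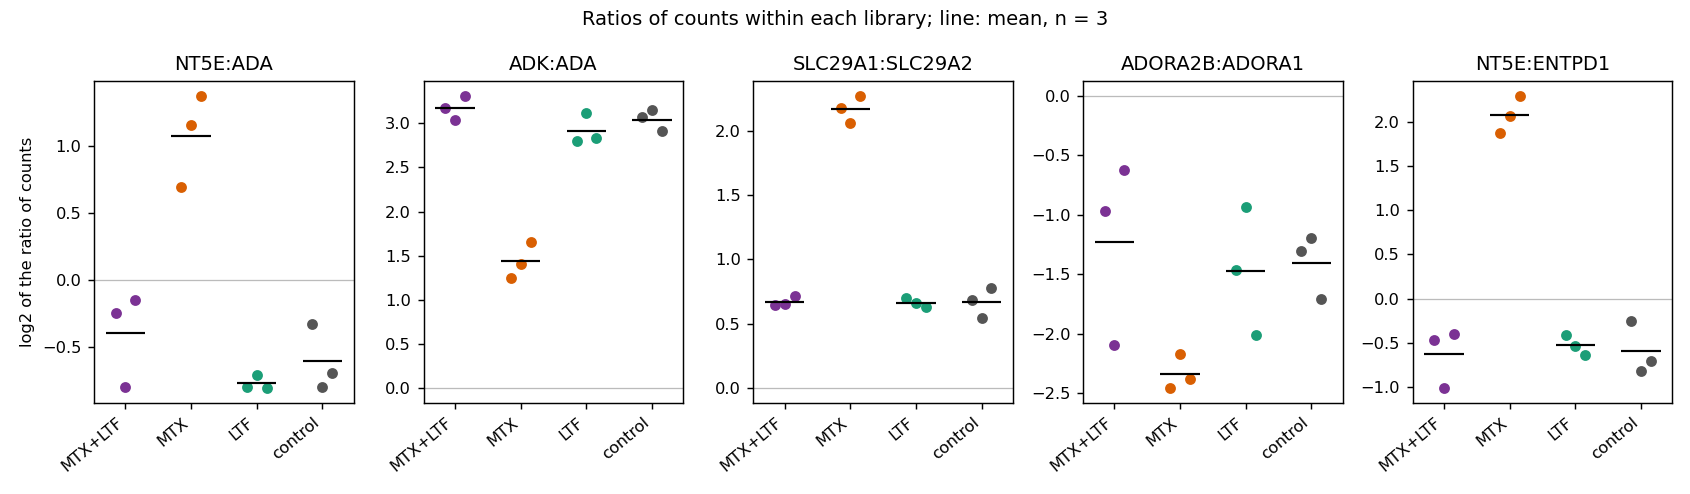
Log2 of the ratio of counts of 2 genes within each library (y axis) for 5 pairs (panels), with 1 point per library, a line at the mean of 3 and the groups both agents (MTX+LTF), methotrexate (MTX), lactoferrin (LTF) and control from left to right. In each panel the methotrexate libraries lie outside the range of the other 9, by the least for ADORA2B to ADORA1, where they reach 0.222 against 0.235 in the lowest library of both agents.

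A wider list held 106 other genes of adenosine and purine handling, of which 90 could be tested. With methotrexate against control, 36 rose and 30 fell on TMM, with a median log2 change of 0.07, where 35.4% of all genes were higher and 29.1% lower. The epithelial scaling gave 65 higher and 3 lower, where 74.2% of all genes were higher and 0.741% lower. The counts by role below are to be read against those shares on each scaling. Relative to methotrexate, 25 rose and 37 fell with both agents on TMM, where 28.8% of all genes were higher and 34.4% lower, and 3 rose and 64 fell on the epithelial scaling, where 1.49% were higher and 71.4% lower. In each of the other 3 comparisons 0 passed edgeR's test, and 0 passed in DESeq2 and limma-voom. At an unadjusted p under 0.05 there were 2 with lactoferrin against control, 1 with both agents against control and 4 with both agents against lactoferrin. Over all 16733 genes the counts at that cut were 628, 591 and 565, in the same order. Genes too low to test included ADORA3, the fourth adenosine receptor, with 2 counts over the 3 libraries of both agents, 3 with methotrexate, 0 with lactoferrin and 0 in control. The concentrative transporters SLC28A1, SLC28A2 and SLC28A3, which pump nucleosides into the cell with sodium, were also too low, at 4 to 35 counts per group.

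Of the 14 other ectonucleotidases tested, 3 rose and 7 fell under methotrexate against control, and 6 rose and 2 fell on the epithelial scaling. ENPP2 (autotaxin, abundant in adipose tissue) averaged 24.9 ± 2.26 CPM with methotrexate and 0.278 ± 0.174 CPM in control, a log2 change of 6.42 ± 0.27 (SD and SE, n = 3 each; adjusted p = 4.95e-12, edgeR). ALPL, the tissue-nonspecific alkaline phosphatase, rose by 4.00 and ENTPD7, an intracellular member of the ENTPD1 family, fell by 0.71 on TMM but had 0.19 on the epithelial scaling (adjusted p = 0.130). In the group with both agents against methotrexate the log2 changes were -5.16 for ENPP2, -3.99 for ALPL and 1.49 for ALPPL2, a placental-type phosphatase. ENPP2 was also the gene behind the 1 unadjusted p under 0.05 with both agents against control, at 0.691 ± 0.195 and 0.278 ± 0.174 CPM (adjusted p = 1.00, edgeR). Cytosolic nucleotidases and their relatives moved less, with 1 of 7 rising (NT5M, a mitochondrial nucleotidase, by 1.10) and 2 falling (NT5C3B by 0.37 and NT5DC2 by 0.54). With the epithelial scaling 6 of the 7 rose, NT5C3B by 0.52 among them, and NT5DC2 had 0.36, which did not pass (adjusted p = 0.0843).

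Of 19 genes of deamination and salvage, 6 rose and 6 fell, and on the epithelial scaling 14 rose and 0 fell. AK3 and AK4, adenylate kinase family members of the mitochondrial matrix, rose by 2.66 and 1.16 with methotrexate against control, and DPP4, which anchors ADA on the surface of human cells, fell by 1.08 to 231 ± 14.4 CPM, against 490 ± 25.04 CPM in control. The fall of DPP4 is close in size to the median of the epithelial genes given above, and on the scaling set by them it had -0.19 (adjusted p = 0.116). The group with both agents, relative to methotrexate, had lower AK4 and AK3 (log2 changes of -1.21 and -2.44) and DPP4 higher by 1.16. The plasma membrane transporter SLC29A4 was the 1 of 2 other tested nucleoside transporters to pass, with a rise of 0.65 under methotrexate, and both passed as higher on the epithelial scaling. All 8 ATP release genes passed on TMM, where 64.5% of all genes did, 4 in each direction. With the epithelial scaling 6 rose and 0 fell. On TMM, CALHM2, of a family of ATP channels, rose by 3.68, the connexin GJA1 rose by 1.42, and the connexin GJB1, of hepatocytes and other epithelia, fell by 1.08, which was -0.19 on the epithelial scaling (adjusted p = 0.116). With both agents against methotrexate these 3 had log2 changes of -3.43, -1.32 and 0.92, and SLC29A4 of -0.68.

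Of 9 other purine receptors, 3 rose and 4 fell under methotrexate against control, and 3 rose and 1 fell on the epithelial scaling. P2RX6 rose by 7.16, from only 13 counts over the 3 control libraries, and had 9 with both agents. P2RY12, the ADP receptor of platelets and microglia, had 1141 counts over the 3 methotrexate libraries and 0 in control, at least 185-fold higher when set against 3 counts over the group. P2RX7, the ATP-gated channel of macrophages, had 201 counts with methotrexate and 1 in control, a ratio of 97.9 with a 95% counting interval of 17.4 to 3885. P2RY12 was also at 0 with both agents, at least 176-fold lower than with methotrexate, while P2RY1 rose by 1.12 on TMM in that comparison (0.30 on the epithelial scaling, adjusted p = 0.0992) and P2RX6 fell by 7.60. Receptor coupling genes divided as well, with 8 of 18 rising and 6 falling on TMM, and 15 rising and 0 falling on the epithelial scaling. GNAI1, an inhibitory G protein subunit, rose by 4.81, and the protein kinase A catalytic subunits PRKACA and PRKACB rose by 1.85 and 3.24. In the libraries with both agents against methotrexate, GNAI1 had a log2 change of -5.12, PRKACA of -1.89 and GNAQ, the subunit that activates phospholipase C, of -1.69.

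Of 13 genes tied to the response to cAMP, 10 rose and 1 fell under methotrexate against control, where 35.4% of all genes were higher and 29.1% lower. Their median log2 change was 1.18, against 0.03 over all genes. All 13 rose on the epithelial scaling, with a median of 2.08, against 0.92 over all genes. The list was chosen with earlier results of these data known, so these medians are a description and no test of it. DUSP1, a phosphatase of MAP kinases, averaged 79.2 ± 13.1 CPM with methotrexate and 12.6 ± 1.01 CPM in control, a log2 change of 2.65 ± 0.16 (adjusted p = 3.78e-10, edgeR). The nuclear receptor NR4A3 rose by 4.33 and PPARGC1A, a coactivator of mitochondrial genes, by 5.49. Their control libraries held only 16 and 5 counts in total, and the libraries with both agents 9 and 5. With both agents against methotrexate 10 of the 13 fell and 1 rose on TMM, and all 13 fell on the epithelial scaling. On TMM the log2 changes were -2.72 for DUSP1, -5.07 for NR4A3 and -5.42 for PPARGC1A. These genes also answer to other signals, such as growth factors and stress. The adipocyte and fibroblast marker sums given above moved with every gene of this list that rose, and their part was not tested.

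**Figure D5:**
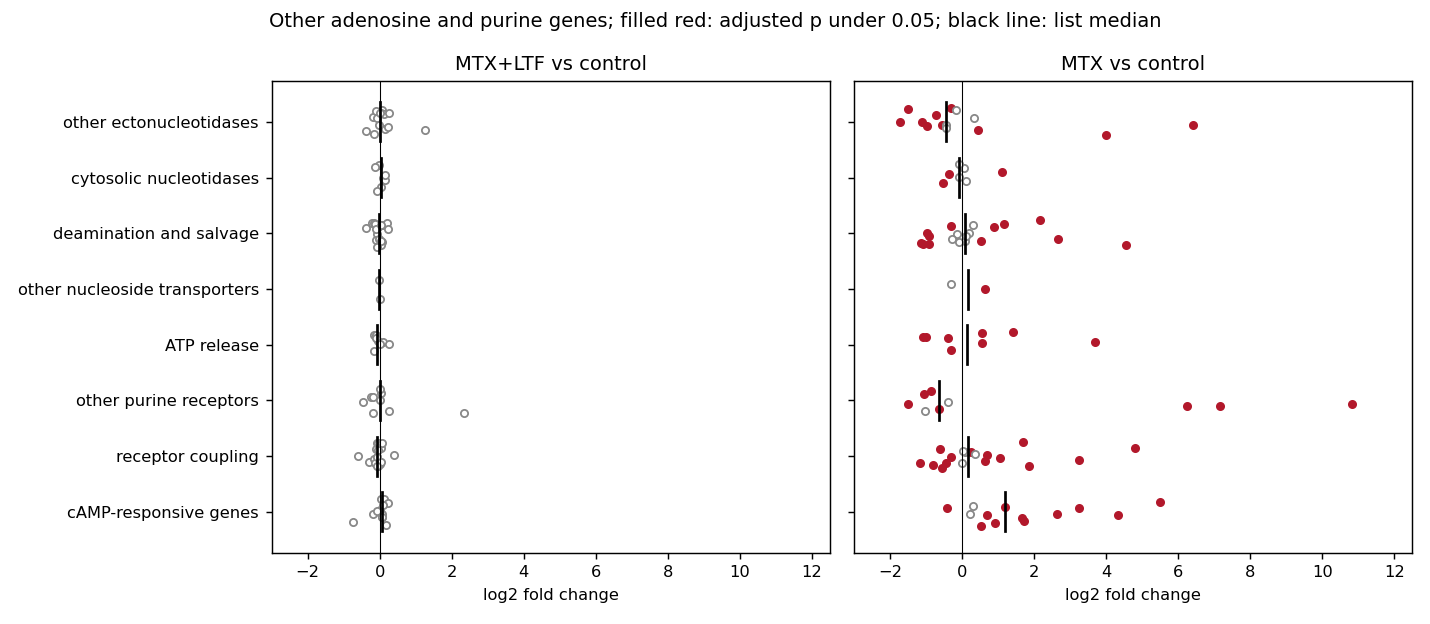
Log2 fold change (x axis) of each tested gene of 8 lists of other adenosine and purine genes (y axis), with both agents against control on the left and methotrexate against control on the right; filled red points passed an adjusted p of 0.05, and black lines are list medians. There are 0 red points on the left and 66 on the right, and the values of P2RY12, farthest right, and P2RX7 depend on the prior count because control had 0 and 1 counts. Other points far to the right, such as PPARGC1A and P2RX6, also rest on few control counts (5 and 13).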

How the data were processed

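Paired-end RNA-seq of 12 libraries was deposited by the authors as a table of whole-number counts per gene, with symbols and hg19 coordinates, and its values were whole numbers. Per the submitters' processing notes the tools were CASAVA, STAR and DESeq2 with hg19. Their versions, the counting step, the annotation and the strandedness are not given here by the sources, and neither is whether a count is a read or a read pair.

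Of 48162 rows, 15233 were at 0 in all libraries and 16733 passed filterByExpr on the 4 groups. One model over all 12 libraries was fitted in R 4.3.3 with edgeR 4.0.16 (TMM factors 0.852 to 1.08, biological coefficient of variation 12.9%). The quasi-likelihood test was applied to 5 contrasts and to their interaction, with Benjamini-Hochberg adjustment over all tested genes of a contrast and calls under 0.05. SE was taken as the log2 change over the root of F, and levels are CPM on TMM library sizes, also divided by the gene length in the table. The code was tested on simulated data. A total of 3 counts is 0.0495 to 0.160 CPM, and counting intervals cover counting error only.

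The 10 members and the lists were chosen with earlier results of these data known. Named genes are all members, up to 3 called genes with the lowest p per list and comparison, and the 3 genes most like the member with the lowest p in both agents against control. The interaction, the correlations and the epithelial scaling of the interaction and the role lists were added after the data were seen.

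Alternatives were DESeq2 1.42.0, limma-voom (limma 3.58.1), RLE factors, epithelial scaling, no filter, a replicate block, the compared groups alone, a rule of over 2-fold at an adjusted p under 0.01, fits without the methotrexate libraries and leaving out each library. Promoter windows and motif shares came from RefSeq's GRCh38.p14, which held 8 of the 10 members.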

Additional observations from a re-analysis of the deposited data

Results flagged for a closer look

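The log2 change with methotrexate differed with and without lactoferrin for 5 of the 10 members, where 46.7% of all tested genes passed. This was a test of the difference itself (edgeR quasi-likelihood interaction, Benjamini-Hochberg adjusted), and the count is close to that share. Each value is the log2 change of both agents against lactoferrin, minus that of methotrexate against control. It was -2.43 ± 0.26 for NT5E (SE, adjusted p = 1.84e-06), which changed by 0.19 with lactoferrin present and 2.63 without it. It was -1.17 ± 0.17 for ADA (adjusted p = 3.17e-05) and 0.70 ± 0.15 for ADK (adjusted p = 0.00145). It was 1.14 ± 0.23 for SLC29A2 (adjusted p = 0.000768) and -1.40 ± 0.31 for ADORA1 (adjusted p = 0.00189). On the epithelial scaling, an alternative chosen after seeing the data, the values were -3.30 for NT5E, -2.03 for ADA and -2.25 for ADORA1, which passed. Those of ADK (-0.16, adjusted p = 0.421) and SLC29A2 (0.28, adjusted p = 0.255) did not pass there, and the direction for ADK turned. ENTPD1 (-0.57, adjusted p = 0.0116) and AMPD3 (-1.31, adjusted p = 4.83e-05) passed the edgeR interaction test only on that scaling. So did SLC29A1 (-1.21, adjusted p = 4.46e-05) and ADORA2B (-1.09, adjusted p = 0.00757). Which members pass thus depends on the scaling, and 62.5% of all genes passed on the epithelial one. Libraries given methotrexate alone carry the adipocyte and fibroblast marker sums described in the report and those given both agents do not, and the part of this in any of these differences was not tested.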

How the results depend on the processing

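Both comparisons with methotrexate depend on the scaling. On the epithelial scaling, the direction turned for ENTPD1 (0.86), ADK (0.24) and ADORA2A (0.31) with methotrexate against control, and for ENTPD1 (-0.64) and ADK (-0.13) with both agents against methotrexate. NT5E, ADA, AMPD3, SLC29A1 and ADORA1 kept their direction and call there in both comparisons. That is no check on them, as this scaling shifts all genes the same way as these had moved on TMM. It moved the median of all genes from 0.03 to 0.92 with methotrexate against control. With both agents against methotrexate it moved that median from -0.01 to -0.84. On the epithelial scaling, tried after seeing the data, the interaction of ADK turned to -0.16, and those of ADK and SLC29A2 (0.28) no longer passed. Those of ENTPD1, AMPD3, SLC29A1 and ADORA2B passed only on that scaling. The rule of over 2-fold at an adjusted p under 0.01 left 3 members with methotrexate against control and 4 with both agents against methotrexate, and 33 and 31 genes of the wider list. The cause of the losses is that rule itself. How many of all genes passed it was not counted, so these counts are no result about the members or the list as such. Without the 3 methotrexate libraries ADK had -0.00053 with lactoferrin against control, and over all genes edgeR then called 0 with both agents against control and 0 with both agents against lactoferrin, in place of 5 and 3. With all 12 libraries in the fit, DESeq2 called 15 and 7, and 1 with lactoferrin against control, and limma-voom 0, 0 and 0.

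Leaving out 1 library in turn gave 5 to 8 members called with methotrexate against control, 5 without control library 2 and 5 without methotrexate library 1. The share of all genes called in these fits was not counted. Differences near 0 changed sign: with lactoferrin against control ADK ran over -0.086 to 0.053, AMPD3 over -0.12 to 0.030 and NT5E over -0.20 to 0.11. With both agents against control the ranges were -0.047 to 0.13 for ADK, -0.41 to 0.032 for ADORA1, -0.12 to 0.22 for ADORA2B, -0.0086 to 0.32 for NT5E, -0.22 to 0.047 for SLC29A1 and -0.23 to 0.068 for SLC29A2. With both agents against lactoferrin they were -0.051 to 0.13 for ADK, -0.20 to 0.18 for ADORA1, -0.18 to 0.044 for AMPD3, -0.026 to 0.24 for SLC29A1 and -0.042 to 0.26 for SLC29A2. ENTPD1 ran over -0.079 to 0.020 with methotrexate against control. ADORA2B passed with both agents against methotrexate without methotrexate library 3 (-0.57) or library 3 of both agents (-0.64).

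Samples with the same replicate number did not deviate together (r of -0.22 to 0.12, over 0.1 in 2 of 18 pairs). With 3 libraries per group this cannot exclude that the number pairs them, and the labels do not say. With a replicate block, ADORA2B lost its call with methotrexate against control (0.52, adjusted p = 0.0615, edgeR) and no other member's call changed. ADORA2A, at 14 to 38 counts, had the widest intervals of the members.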
